A study of Homo sapiens with 44 samples.

Results

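NFE2L2, KEAP1, GCLC, GCLM, SLC7A11, NQO1, TXNRD1, SRXN1 and HMOX1 are the regulators and some of the best known target genes of the NRF2 antioxidant pathway. They were taken by name, 9 of the 58721 gene identifiers counted, and each identifier has a gene name in GENCODE release 29. All 9 genes passed the filter on low counts in each table. The RNA came from A549, a human lung adenocarcinoma line: the parental line (WT) and isogenic lines with a truncation at the TAZ2 domain of p300 on some alleles (het1 and het2) or, by its name, on all of them (homo). RNA was read from cultured cells (3 libraries per line), from xenograft tumours taken at day 30 (4 per line), and from WT and het1 tumours given the vehicle DMSO or SAHA for 4 weeks (4 per group). SAHA is vorinostat, which inhibits histone deacetylases. The labels give no host strain, dose or age, het1, het2 and homo are each a single line, and no label ties a library to its own culture or animal. A p-value below therefore measures the spread between these libraries, and a difference from WT belongs to that line as a whole.

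NRF2, the protein of NFE2L2, is a transcription factor that binds antioxidant response elements together with small MAF proteins. KEAP1 holds NRF2 in the cytoplasm and hands it to a CUL3 ubiquitin ligase, so that NRF2 is broken down until oxidants or electrophiles modify KEAP1. A549 cells are known to carry an inactivating change in KEAP1, and NRF2 targets are high in them without any stress. RNA counts show neither the KEAP1 change nor the NRF2 protein.

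The regulators NFE2L2 (chr2:177227595-177392697, minus strand, GRCh38 coordinates here and below) and KEAP1 (chr19:10486120-10503741, minus strand) come first. The glutathione genes are GCLC (chr6:53497341-53616970, minus strand) and GCLM (chr1:93885205-93909456, minus strand), the catalytic and modifier subunits of glutamate cysteine ligase, which carries out the rate-limiting step of glutathione synthesis. SLC7A11 (chr4:138164097-138242349, minus strand) encodes xCT, the transporter that brings in cystine for that synthesis. TXNRD1 (chr12:104215779-104350305, plus strand), thioredoxin reductase, and SRXN1 (chr20:646615-653370, minus strand), which repairs over-oxidised peroxiredoxins, serve the thioredoxin system. NQO1 (chr16:69706996-69726951, minus strand) reduces quinones, and HMOX1 (chr22:35380361-35394214, plus strand) is heme oxygenase 1, which breaks down heme and is also held down by the repressor BACH1.

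Promoter windows from RefSeq (GRCh38.p14), each from 250 bases before to 50 bases after an annotated start, were found for 7 of the 9 genes, in 10 windows. They are shown because members that share a regulator moved in different directions below. The letters TGACNNNGC, the core of the antioxidant response element, were searched on both strands. They stood in 4 of the 10 windows, against 4687 of all 35116 windows of this length (13.3%). The 4 windows belonged to KEAP1 (chr19:10502722-10503021), GCLM (chr1:93909381-93909680) and TXNRD1 (chr12:104215529-104215828 and chr12:104286782-104287081). None of the matches held an AP-1 site (TGACTCA or TGAGTCA) within its 9 letters, and sites that reach beyond a match were not searched. A match is a string of letters, not a measured binding site, and no match says only that the letters are not in that window. Each sequence runs 5′ to 3′ along its gene's strand, with matches in capitals; a match on the opposite strand shows as its reverse complement.
KEAP1 window: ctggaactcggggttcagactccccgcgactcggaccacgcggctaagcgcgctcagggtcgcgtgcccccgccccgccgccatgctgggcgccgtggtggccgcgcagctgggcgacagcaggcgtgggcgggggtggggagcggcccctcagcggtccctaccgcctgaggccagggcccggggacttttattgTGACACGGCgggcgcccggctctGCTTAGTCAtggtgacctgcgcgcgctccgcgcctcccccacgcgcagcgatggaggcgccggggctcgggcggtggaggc
GCLM window: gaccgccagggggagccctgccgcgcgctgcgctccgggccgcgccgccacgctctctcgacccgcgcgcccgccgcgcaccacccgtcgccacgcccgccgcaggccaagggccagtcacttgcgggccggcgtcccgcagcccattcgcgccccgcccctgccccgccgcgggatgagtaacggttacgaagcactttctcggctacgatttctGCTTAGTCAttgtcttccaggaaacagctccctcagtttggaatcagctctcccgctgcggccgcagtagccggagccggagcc
TXNRD1 upstream window: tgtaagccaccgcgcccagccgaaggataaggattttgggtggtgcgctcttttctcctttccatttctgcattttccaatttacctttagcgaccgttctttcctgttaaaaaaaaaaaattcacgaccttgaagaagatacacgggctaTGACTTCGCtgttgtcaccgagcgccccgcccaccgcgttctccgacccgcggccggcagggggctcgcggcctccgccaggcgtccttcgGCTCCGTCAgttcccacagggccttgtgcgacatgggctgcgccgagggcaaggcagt
TXNRD1 downstream window: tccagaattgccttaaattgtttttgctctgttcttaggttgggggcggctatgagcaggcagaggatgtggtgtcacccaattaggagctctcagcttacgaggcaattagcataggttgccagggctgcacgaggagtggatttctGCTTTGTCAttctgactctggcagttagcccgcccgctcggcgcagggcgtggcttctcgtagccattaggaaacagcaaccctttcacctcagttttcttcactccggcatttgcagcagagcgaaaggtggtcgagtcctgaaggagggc

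Library totals ran from 61168373 to 99593214 counts. EP300, which encodes p300, was read in every library at 81.9 to 193 CPM (reads per 1e6 reads counted, with TMM factors), and counts per gene do not show a truncation. The 5 epithelial markers EPCAM, KRT8, KRT18, KRT7 and CDH1 were all detected in every group, and their summed level was 6404 to 6749 CPM in WT cells, 2575 to 2695 in het1, 2017 to 2085 in het2 and 832 to 848.2 in homo cells. In day 30 tumours it was 6560 to 6855 CPM in WT, 3449 to 4028 in het1, 4649 to 5266 in het2 and 4640 to 5179 in homo. The summed level of 7 fibroblast markers (COL1A1, COL1A2, COL3A1, DCN, LUM, PDGFRB and THY1) was 7.215 to 8.15 CPM in WT cells, where COL1A2 and DCN were at 0 in every library, and 42.63 to 44.81 in het1, 43.02 to 45.56 in het2 and 58.95 to 66.69 in homo cells, with none of the 7 at 0 in every library of those lines. COL1A1 was 5.806 CPM in WT cells and 14.5, 32.24 and 53.94 in het1, het2 and homo cells, and COL3A1 was 23.62 in het1 cells. COL1A2 and DCN were at 0.0963 CPM or less in every culture group, and LUM was lower in homo (0.147) than in WT cells (0.2002). The part of these marker differences in the values below was not tested. In tumours, fewer cells of a type and less RNA per cell cannot be told apart. How much of the SRXN1 count is its own is uncertain: 2292 of its exonic bases (85%) are shared with AL121758.1, a protein-coding gene on the same strand. GCLC shares 529 bases (6.12%) with the long noncoding RNA AL033397.1, which stood at 8.88 CPM in WT cells and 47.7 in WT tumours but at 0.0247 in homo cells and at 2.41, 4.73 and 0.438 in het1, het2 and homo tumours. NFE2L2 shares 1054 bases (17.6%) with AC019080.1 on its strand. That gene stood at 3.05 and 4.18 CPM in WT and het1 day 30 tumours, and at 3.67 and 4.83 under DMSO. On the opposite strand, NQO1 shares 575 bases (17.7%) with AC092115.2, which had 0 counts. SLC7A11 shares 865 bases (8.97%) with SLC7A11-AS1, whose highest group mean was 1.70 CPM, and NFE2L2 shorter stretches with AGPS and AC079305.1. The share of GCLC, NFE2L2, NQO1 and SLC7A11 reads that these overlaps touch was not tested.

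Per length, NQO1 and TXNRD1 dominated the 9 genes in WT cells. NQO1 stood at 643 RPKM (CPM per kilobase of exon) and TXNRD1 at 429, followed by HMOX1 at 108, SLC7A11 at 76.2, GCLM at 75.8 and GCLC at 51.5 RPKM. NFE2L2 (25.9 RPKM), KEAP1 (21.6) and SRXN1 (6.17) were lower. In WT day 30 tumours NQO1 (522 RPKM) and TXNRD1 (276) again led, while HMOX1 stood at 25.2 and GCLM at 20.7. The regulators stood near their level in culture, NFE2L2 at 26.3 and KEAP1 at 21.3 RPKM.

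**Figure D1:**
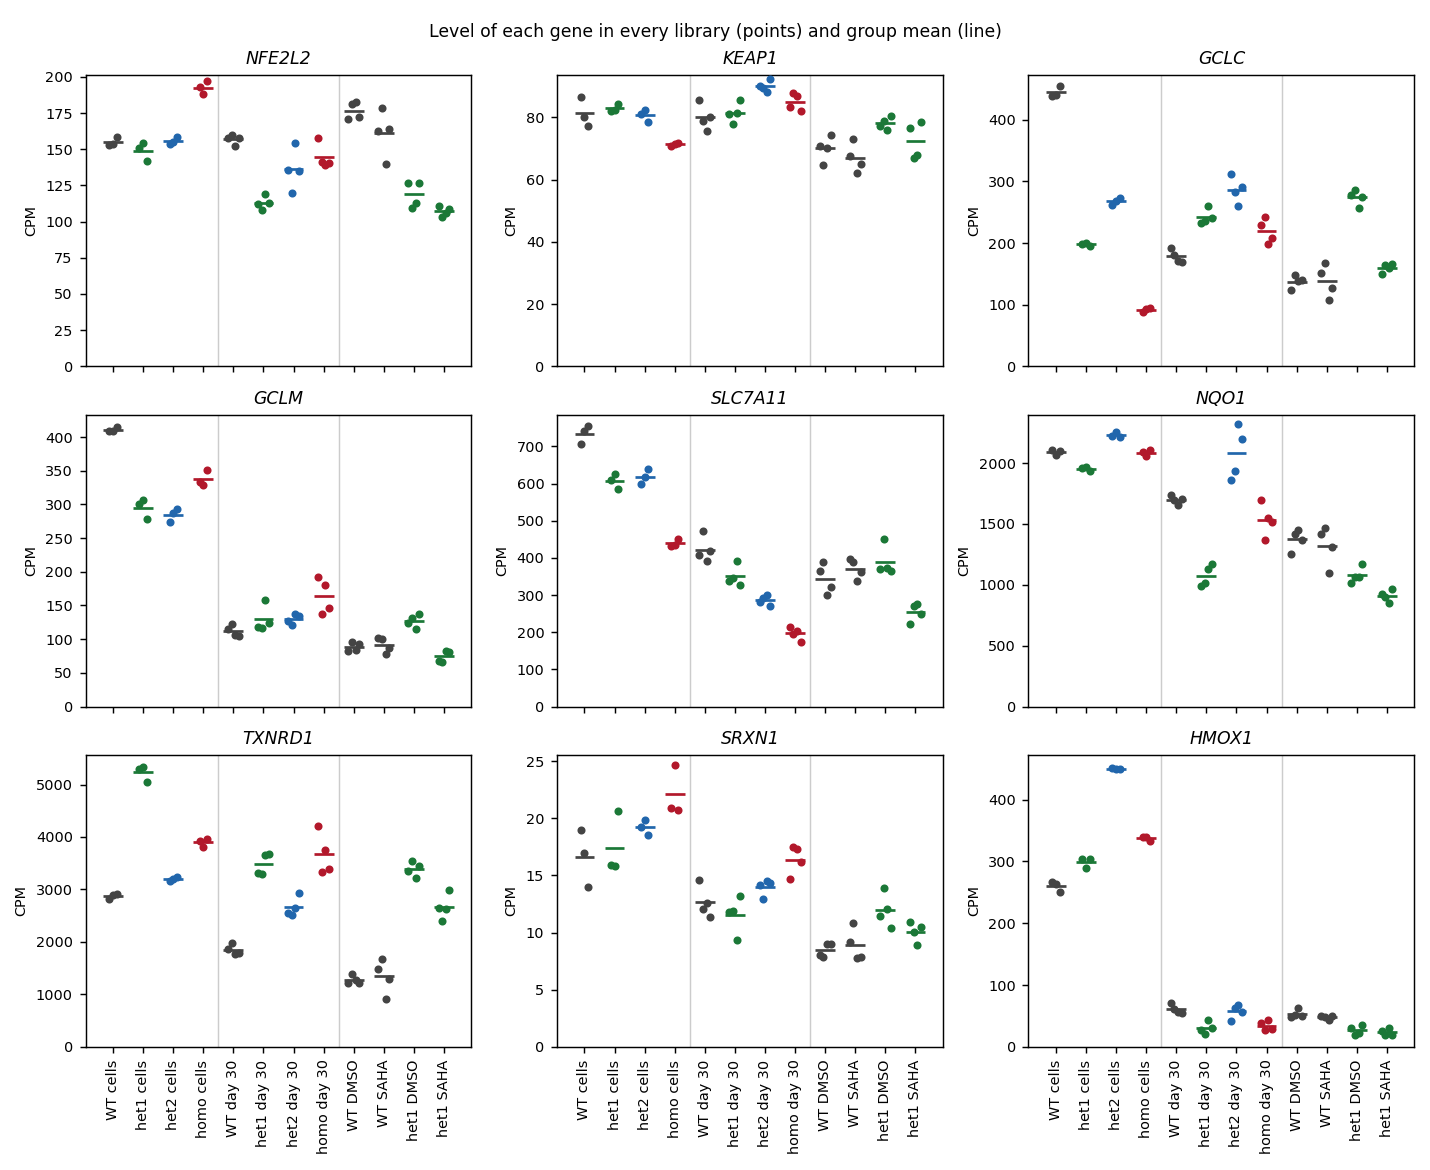
CPM (linear axis from 0) of the 9 genes in each of the 44 libraries, by group, with points for libraries and lines for group means; grey lines divide cultured cells, day 30 tumours and treated tumours. HMOX1 and GCLM are high in every culture and low in every tumour, KEAP1 hardly moves, and GCLC ranges from 92.0 CPM in homo cells to 445 CPM in WT cells.

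The 9 genes varied over very different ranges across the 12 groups, as the plot of levels by library shows. The highest group mean was 1.34 times the lowest for KEAP1 and 1.79 times for NFE2L2, but 4.84 times for GCLC, 5.52 times for GCLM and 19.0 times for HMOX1. SLC7A11 ranged over 3.74 times, TXNRD1 over 4.1, SRXN1 over 2.61 and NQO1 over 2.45 times. HMOX1 stood at 251 to 450.5 CPM in the 12 culture libraries and at 19.5 to 70.6 CPM in the 32 tumour libraries. GCLM was likewise higher in every culture library (274 to 416 CPM) than in every tumour library (66.7 to 192 CPM). These culture and tumour levels come from tables scaled apart and were not tested against each other.

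The order of the group means differed by gene. GCLC was highest in WT cells and lowest in homo cells, and neither group overlapped its neighbour in the order. TXNRD1 was highest in het1 cells, without overlap, and lowest in the DMSO and SAHA tumours of WT, which overlapped each other. SLC7A11 was highest in WT cells and lowest in homo tumours, and neither overlapped its neighbour. GCLM was likewise highest in WT cells, and lowest in het1 SAHA tumours. HMOX1 was highest in het2 cells, and the 4 cultured lines were apart from each other. NQO1 had its highest mean in het2 cells, whose libraries (2211 to 2256 CPM) lay within the range of het2 tumours (1860.4 to 2323 CPM). Its lowest mean was in het1 SAHA tumours, without overlap. SRXN1 was highest in homo cells, without overlap, and lowest in WT DMSO tumours, which overlapped WT SAHA tumours. NFE2L2 stood highest in homo cells, without overlap, and below them neighbouring groups overlapped all the way to the het1 SAHA tumours. KEAP1 was highest in het2 tumours, without overlap, and the other neighbouring groups overlapped. Among the 3 genes whose promoter windows hold the searched letters, KEAP1 had the narrowest range of the 9, and GCLM and TXNRD1 ranged over more than 4 times.

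In culture GCLC, GCLM and SLC7A11 were lower than in WT in all 3 lines, and TXNRD1 and HMOX1 were higher. In the edgeR quasi-likelihood test (adjusted p under 0.05, over all genes of the table), 2 of the 9 genes rose and 4 fell in het1 cells, 3 rose and 3 fell in het2 cells, and 4 rose and 4 fell in homo cells. All tested genes were called at 62.8% in het1, 68.5% in het2 and 70.5% in homo, so counts of 6, 6 and 8 of 9 are close to the background. The median absolute log2 fold change (log2FC) of the 9 genes was 0.20, 0.21 and 0.38 in the 3 lines, against 0.39, 0.47 and 0.49 over all genes tested. Scaling by library totals alone in place of TMM moves every cell value up by 0.154 in het1, 0.117 in het2 and 0.198 in homo, and the split then becomes 5 raised and 3 lowered in het1, 6 and 3 in het2, and 5 and 3 in homo.

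GCLC had the widest range in culture. Its level was 439, 440.3 and 455 CPM in the WT cell libraries, 199, 201 and 196 in het1, 262, 268 and 274 in het2 and 88.2, 92.8 and 95.1 in homo. All groups were apart from each other, and every WT library was above every library of the other lines. The edgeR log2FC of GCLC was -1.17 (SE 0.0273, adjusted p = 5.79e-27) in het1, -0.73 (SE 0.0269, adjusted p = 1.09e-21) in het2 and -2.27 (SE 0.0287, adjusted p = 1.32e-34) in homo. Homo cells were also below the mean of het1 and het2 cells (log2FC -1.33, SE 0.0256).

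The partner subunit GCLM moved the same way but less. It read 409, 408 and 416 CPM in WT cells, 300.3, 306 and 278 in het1, 274, 287 and 293 in het2 and 334, 329 and 351 in homo. All 9 libraries of the lines lay below WT, and those of het1 and het2 overlapped. The log2FC was -0.48 in het1, -0.53 in het2 and -0.28 in homo, each called, and here homo stood above the mean of the het lines (log2FC 0.22, SE 0.0265). Per length, the catalytic subunit stood at 51.5 RPKM beside 75.8 for the modifier in WT cells, and at 10.6 beside 62.3 RPKM in homo cells.

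SLC7A11, the cystine transporter, was lower as well. WT cells held 707, 741 and 756 CPM, het1 610.3, 625 and 587, het2 598, 618 and 639.5 and homo 431, 434 and 451. The homo libraries were the lowest, with no overlap with the het lines, which overlapped each other. The log2FC was -0.27 in het1, -0.25 in het2 and -0.74 in homo, all called as falls. SLC3A2, the heavy chain that carries xCT to the cell surface, fell from 789 ± 30.2 CPM (SD, n = 3) in WT to 278 ± 5.39, 337 ± 5.69 and 199.5 ± 6.69 CPM in het1, het2 and homo cells.

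TXNRD1 rose in all 3 lines in culture. It read 2818, 2896 and 2917 CPM in WT cells, 5299, 5339 and 5048 in het1, 3162, 3206 and 3238 in het2 and 3917, 3810.5 and 3970.0 in homo. No line overlapped WT or another line, and het1 was the highest. The log2FC was 0.86 in het1, 0.15 in het2 and 0.44 in homo. SRXN1, the other thioredoxin-side gene, was called only in the comparison of homo with WT among these 3 (log2FC 0.41, SE 0.126, adjusted p = 0.0118), with 19.0, 17.0 and 14.0 CPM in WT and 20.9, 24.7 and 20.7 in homo cells. The het2 value (0.21) was called with library totals (0.33), with only the groups compared (0.23), and without WT replicate 1 (0.32) or het1 replicate 3 (0.21).

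HMOX1 rose in every line in culture while the quinone reductase NQO1 moved little. HMOX1 read 267, 263 and 251 CPM in WT cells, 304, 289 and 303 in het1, 450.5, 449 and 449 in het2 and 340.3, 340.1 and 334 in homo, again with no overlap between lines. Its log2FC was 0.20, 0.79 and 0.38. NQO1 stood at 2091 ± 22.3 CPM in WT, 1955 ± 20.9 in het1, 2229 ± 23.8 in het2 and 2085 ± 25.0 in homo (SD, n = 3). It was called lower in het1 (log2FC -0.10, SE 0.0209) and higher in het2 (log2FC 0.092, SE 0.0209), and the het1 value turned to 0.057 with library totals.

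Of the regulators, NFE2L2 was called as raised with TMM scaling in homo cells only among the 3 comparisons with WT. With library totals NFE2L2 was also called as raised in het1 (0.094) and het2 (0.12). It read 153, 154 and 158 CPM in WT and 193, 188 and 197 in homo cells, which did not overlap (log2FC 0.31, SE 0.0297, adjusted p = 4.36e-11), and homo was also above the mean of the het lines (log2FC 0.34, SE 0.0254). The het1 value of -0.059 was called when any of 4 single libraries was left out (WT replicate 1, het1 replicate 2, homo replicate 2 or homo replicate 3), with a range of -0.090 to -0.033. KEAP1 fell in homo cells (log2FC -0.19, SE 0.0356), from 81.3 ± 4.84 to 71.3 ± 0.615 CPM, and this value was 0.010 with library totals. With that scaling KEAP1 was called as raised in het1 (0.18) and het2 (0.11). Against the mean of het1 and het2, homo cells held 2 of the 9 genes higher (NFE2L2 and GCLM) and 5 lower (KEAP1, GCLC, SLC7A11, TXNRD1 and HMOX1), beside 49.9% of all genes called. TXNRD1 had a log2FC of -0.070 there, a call lost without homo replicate 2 (-0.055) and with library totals (-0.0068). SRXN1 (0.27) missed the threshold there but was called as higher with library totals (0.33), DESeq2 (0.28), a mean of at least 1 CPM (0.28) or only the groups compared (0.27), and without WT replicate 1 or 3 or het1 replicate 3 (0.26, 0.27 and 0.34).

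**Figure D2:**
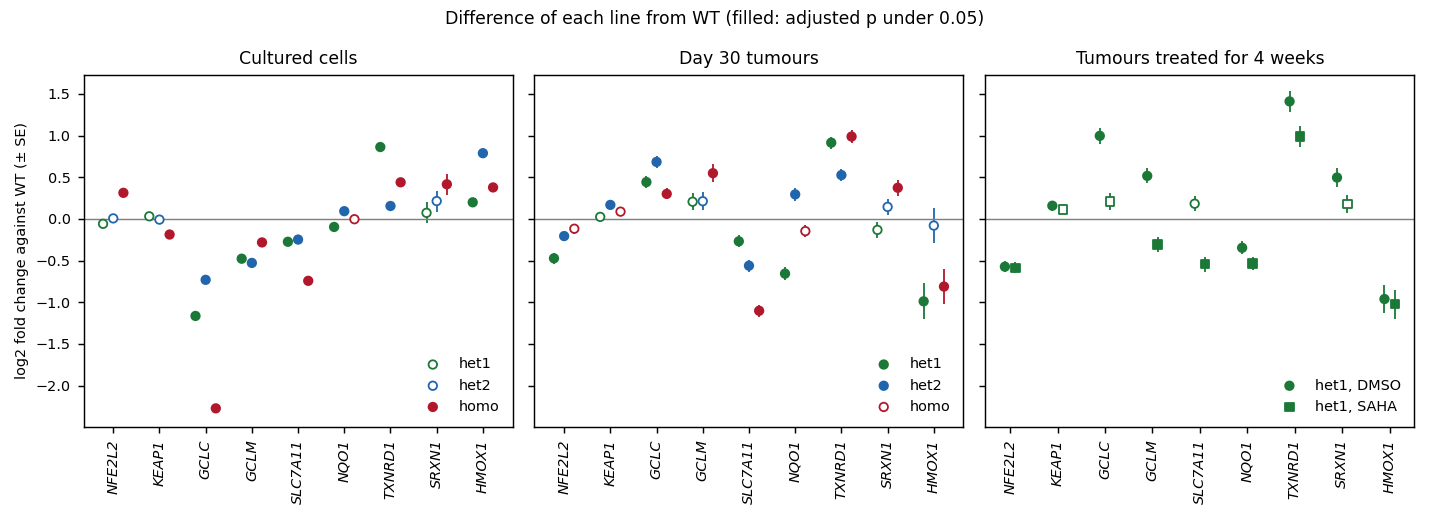
log2 fold change against WT of each gene (y axis, bars are the model's SE) in cultured cells, day 30 tumours and tumours treated for 4 weeks, coloured by line; filled symbols have an adjusted p under 0.05 and squares are SAHA tumours. GCLC lies below 0 in every cultured line and above 0 in every day 30 tumour, while TXNRD1 lies above 0 throughout.

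As tumours at day 30, the lines kept high TXNRD1 and low SLC7A11, and GCLC changed sides. The edgeR test called 2 of the 9 genes higher and 4 lower in het1 tumours, 4 higher and 2 lower in het2 tumours, and 4 higher and 2 lower in homo tumours. The background was 51.5% of all genes in het1, 49.2% in het2 and 54.8% in homo, against 6 of 9 in each line here. The median absolute log2FC of the 9 genes was 0.44, 0.21 and 0.37, beside 0.35, 0.34 and 0.39 over all genes.

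GCLC was higher in the tumours of all 3 lines. WT tumours held 192, 181, 172 and 169 CPM, het1 233, 236, 259.8 and 241, het2 312, 283, 260.2 and 291 and homo 229, 243, 198 and 208. Every library of the lines lay above every WT library, and het2 was the highest, its lowest library just above the highest of het1. The rises were 0.44 (SE 0.0673, adjusted p = 1.18e-05) in het1, 0.68 (SE 0.0674, adjusted p = 4.26e-08) in het2 and 0.30 (SE 0.0672, adjusted p = 0.000742) in homo on the log2 scale (edgeR). WT itself was at 445 CPM in culture and 178 CPM as a tumour, while homo was at 92.0 and 219.7 CPM.

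SLC7A11 was lower in all 3 lines, as in culture. It read 409, 472, 392 and 417 CPM in WT tumours, 337, 347, 392 and 327 in het1, 282, 292, 301 and 269.9 in het2 and 214, 196, 202 and 174 in homo. The homo and het2 groups overlapped neither each other nor WT, and the highest het1 library (391.8 CPM) was just under the lowest WT library (392.3 CPM). The log2FC was -0.27 in het1, -0.56 in het2 and -1.10 in homo, and homo was below the mean of the het lines (log2FC -0.69, SE 0.0631). GCLM rose in homo tumours (log2FC 0.55, SE 0.105, adjusted p = 0.000243), from 116, 122, 106 and 105 CPM in WT to 192, 138, 180.5 and 146. In het1 and het2 tumours its values of 0.21 and 0.21 missed the threshold, and the het2 value was called with only the groups compared (0.23) and without het1 replicate 3 (0.21).

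TXNRD1 was well above WT in every tumour line. WT tumours read 1868, 1970.1, 1777 and 1790.4 CPM, het1 3316, 3297, 3658 and 3684, het2 2558, 2515, 2651 and 2937 and homo 4215, 3328, 3760.5 and 3382. All 12 libraries of the lines were above the WT range, and het1 and homo overlapped. The log2FC was 0.91 in het1, 0.53 in het2 and 0.99 in homo. SRXN1 was called in homo tumours (log2FC 0.37, SE 0.0958, adjusted p = 0.0024), at 16.4 ± 1.3 against 12.7 ± 1.38 CPM (SD, n = 4).

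NQO1 split the het lines. It read 1734, 1698, 1655 and 1701 CPM in WT tumours, 993, 1011, 1132 and 1168 in het1, 1860.4, 1938, 2323 and 2201 in het2 and 1699, 1368, 1545 and 1518 in homo. The het1 libraries were all below the others and the het2 libraries all above. The summed level of 5 endothelial markers (PECAM1, CDH5, VWF, KDR and EMCN) did not overlap between any of the 4 lines, at 1.914 to 2.545 CPM in WT, 0.6974 to 1.136 in het1, 5.601 to 8.004 in het2 and 3.439 to 4.513 in homo tumours, with EMCN at 0 in every het1 library and none of the 5 at 0 in every library of another line. PECAM1 was lower in homo (0.9654 CPM) than in WT tumours (1.555), while CDH5 (0.9757 and 0.1175) and KDR (1.838 and 0.4225) were higher. VWF was 0.08271 CPM in WT, 0.1127 in het1, 0.0419 in het2 and 0.1077 in homo. EMCN was at 0.0304 CPM or less. The part of endothelial cells in the values was not tested. NQO1 was called lower in het1 (log2FC -0.66, SE 0.0759) and higher in het2 (log2FC 0.29, SE 0.0757), and the homo value of -0.15 missed the threshold, though it was called without homo replicate 0 (-0.20).

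HMOX1 was lower in het1 and homo tumours, the reverse of culture. WT tumours held 70.6, 60.4, 57.2 and 54.1 CPM, het1 27.5, 21.5, 43.2 and 29.8, het2 42.2, 63.0, 68.0 and 56.0 and homo 38.1, 27.6, 43.4 and 28.7. The het1 and homo libraries stood below the WT range, and het2 overlapped it. The log2FC was -0.99 (SE 0.214, adjusted p = 0.00144) in het1, -0.081 in het2 (not called) and -0.81 (SE 0.213, adjusted p = 0.00522) in homo. Myeloid cells can hold HMOX1, and the summed level of 7 myeloid markers (PTPRC, CSF1R, ITGAM, CD14, AIF1, CD163 and LYZ) was 32.73 to 46.05 CPM in WT, 13.41 to 16.46 in het1, 25.22 to 31.53 in het2 and 17.3 to 20.63 in homo tumours, with none of the 7 at 0 in all libraries of a group. LYZ was 31.47 CPM in WT and 6.468, 16.06 and 9.058 in het1, het2 and homo. CD14 went the other way, from 2.61 CPM in WT to 5.361, 9.567 and 5.934. PTPRC, CSF1R, ITGAM and AIF1 were higher than WT in some lines and lower in others, and CD163 was near 0. The part of myeloid cells in the HMOX1 values was not tested.

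NFE2L2 was lower in het1 and het2 tumours. It read 158, 160.0, 152 and 158 CPM in WT, 112, 108, 119 and 113 in het1, 135, 119.8, 154 and 135 in het2 and 158, 141, 139 and 141 in homo tumours. The het1 libraries were the lowest and apart from WT, whereas het2 and homo each overlapped WT. The log2FC was -0.47 in het1 and -0.21 in het2, the latter lost without het2 replicate 1 (-0.13), and -0.12 in homo, which was called without homo replicate 0 (-0.16). KEAP1 rose slightly in het2 tumours (log2FC 0.17, SE 0.0477), with 89.9 ± 1.76 CPM against 80.0 ± 4.22 in WT (SD, n = 4). Homo tumours differed from the mean of the het lines in 6 of the 9 genes, 4 higher (NFE2L2, GCLM, TXNRD1 and SRXN1) and 2 lower (GCLC and SLC7A11), with 44.7% of all genes called.

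**Figure D3:**
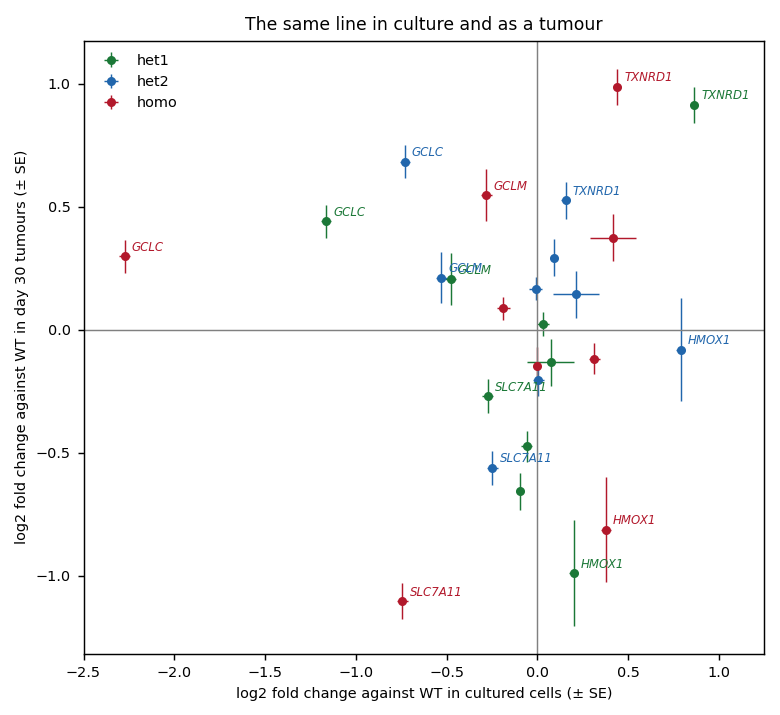
log2 fold change against WT in cultured cells (x axis) and in day 30 tumours (y axis) for the 9 genes in het1, het2 and homo, with SE bars; GCLC, GCLM, SLC7A11, TXNRD1 and HMOX1 are named. GCLC lies at the upper left for all 3 lines, SLC7A11 at the lower left and TXNRD1 at the upper right.

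Whether a line's difference from WT itself differed between culture and tumour was tested in a joint fit of both tables, added after the values were seen. GCLC differed most: its line effect was higher in tumours by 1.68 (SE 0.0843, adjusted p = 2.28e-16) in het1, 1.503 (SE 0.0841, adjusted p = 1.3e-15) in het2 and 2.65 (SE 0.0855, adjusted p = 6.68e-22) in homo on the log2 scale. GCLM moved the same way, by 0.75, 0.83 and 0.91, and HMOX1 the opposite way, by -1.12, -0.78 and -1.11. For TXNRD1 the line effect was greater in tumours in het2 (0.46) and homo (0.63), and in het1 its difference of 0.12 missed the threshold. SLC7A11, which was lower in both settings, had differences of -0.23 in het2 and -0.28 in homo, and the het2 call was lost without WT cell replicate 1 or 2, het2 cell replicate 2 or 3, WT tumour replicate 1 or het2 tumour replicate 4 (range -0.27 to -0.17). The fit called 5 of the 9 genes in het1, 7 in het2 and 7 in homo, with 39.2%, 47.6% and 49.1% of all genes called. Setting and library preparation of the 2 tables cannot be told apart in this test.

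Under DMSO, het1 tumours again held more GCLC and TXNRD1 than WT tumours. Of the 9 genes, 5 rose (KEAP1, GCLC, GCLM, TXNRD1 and SRXN1) and 3 fell (NFE2L2, NQO1 and HMOX1), beside 54% of all genes called. GCLC read 123, 149, 138 and 140.2 CPM in WT and 277, 287, 257 and 275 in het1 DMSO tumours (log2FC 1.00, SE 0.100), and TXNRD1 1212, 1386, 1280.3 and 1223 against 3349.6, 3539.5, 3227 and 3441 (log2FC 1.41, SE 0.13). All het1 libraries were above all WT libraries for both genes. GCLM rose by 0.52 and SRXN1 by 0.50 on the log2 scale. The KEAP1 value of 0.16 was lost without WT DMSO replicate 3 or 7 or without het1 DMSO replicate 2, 3 or 5, over a range of 0.12 to 0.19, and also with no filter (0.14) and the replicate block (0.13). SLC7A11 was not called (0.18), but was without WT DMSO replicate 3 (0.24) and with library totals (0.22), where 6 of the 9 genes rose and 3 fell.

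NFE2L2 and HMOX1 were again below WT. NFE2L2 read 171, 181, 182 and 172 CPM in WT and 127, 109, 113 and 126 in het1 DMSO tumours (log2FC -0.57, SE 0.065). HMOX1 read 47.9, 51.2, 62.1 and 50.2 and 31.1, 19.9, 22.8 and 34.8 CPM (log2FC -0.96, SE 0.173), without overlap. The summed myeloid markers were 41.6 to 74.75 CPM in WT and 13.06 to 17.7 in het1 DMSO tumours, with CD163 at 0 in every WT DMSO library. Most of the difference was LYZ (47.75 CPM in WT, 8.643 in het1). PTPRC, CSF1R, ITGAM and AIF1 were also lower in het1, and CD14 was higher (2.34 CPM in WT, 4.96 in het1). The summed fibroblast markers were 243.9 to 355.4 CPM in WT and 115.6 to 132.2 in het1. COL1A1 (190.3 and 59.09 CPM), COL1A2 (52.03 and 15.72) and COL3A1 (46.84 and 14.53) were lower in het1. Higher in het1 were DCN (0.2397 and 3.449), LUM (9.156 and 28.63), PDGFRB (0.9855 and 1.367) and THY1 (0.03338 and 2.182). The endothelial markers were 1.934 to 2.401 CPM in WT and 0.5345 to 0.9001 in het1. Most of that difference was PECAM1 (1.562 CPM in WT, 0.293 in het1). CDH5, KDR and EMCN were also lower in het1, and VWF was higher (0.09045 and 0.1014). The part of myeloid, fibroblast and endothelial cells in the HMOX1 value was not tested.

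Under SAHA, 1 of the 9 genes was called above WT in het1 tumours and 5 below. TXNRD1 was above WT (log2FC 0.99, SE 0.129, adjusted p = 4.66e-06), and those below it were NFE2L2 (-0.59), GCLM (-0.31), SLC7A11 (-0.54), NQO1 (-0.54) and HMOX1 (-1.02). Among all genes 58.9% were called. The summed myeloid markers were 35.09 to 48.06 CPM in WT and 13.34 to 17.48 in het1 SAHA tumours, and the endothelial markers 1.935 to 3.213 and 0.8023 to 1.049 CPM. Most of the myeloid difference was again LYZ (34.85 CPM in WT, 7.383 in het1). PTPRC, CSF1R, ITGAM and AIF1 were also lower in het1, and CD14 was higher (2.044 CPM in WT, 5.341 in het1). Most of the endothelial difference was PECAM1 (1.835 CPM in WT, 0.469 in het1). CDH5 and KDR were also lower in het1, while VWF (0.05551 and 0.1653) and EMCN (0.003479 and 0.03382) were higher. The part of myeloid and endothelial cells in these values was not tested. With library totals 3 genes were above and 5 below, since KEAP1 (0.18) and GCLC (0.27) were then called, as they were with a mean of at least 1 CPM (0.15 and 0.25). Both were also called without WT SAHA replicate 4 (0.15 and 0.31), as was SRXN1 (0.28).

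SAHA itself lowered the glutathione synthesis genes in het1 tumours and none of the 9 genes in WT tumours. In WT tumours 0 of the 9 genes passed the edgeR test, 0 had an unadjusted p under 0.05 and 0 were called by DESeq2. Over all 22586 genes of that comparison edgeR called 0 (0%) with 1911 at an unadjusted p under 0.05, and DESeq2 called 151. In het1 tumours 4 of the 9 genes fell and 0 rose, with 16.8% of all genes called. The median log2FC of the 9 genes there was -0.25, against 0.017 over all genes.

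GCLC read 277, 287, 257 and 275 CPM in het1 tumours with DMSO and 149.6, 165, 160.2 and 166 with SAHA. In WT it read 123, 149, 138 and 140.2 with DMSO and 151, 168, 107 and 128 with SAHA. The het1 groups were well apart, and the WT groups overlapped. The overlapping AL033397.1 stood at 4.09 CPM with DMSO and 1.34 with SAHA in het1, and at 50.2 and 45.7 in WT. The SAHA effect was -0.78 (SE 0.0998, adjusted p = 9.35e-05) in het1 and 0.011 (SE 0.0995, adjusted p = 0.993) in WT, and the test of their difference gave -0.79 (SE 0.141, adjusted p = 0.00506) (edgeR).

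GCLM and SLC7A11 behaved alike. GCLM read 124, 132, 116 and 138 CPM in het1 with DMSO and 67.4, 66.7, 82.2 and 81.4 with SAHA, and 89.0 ± 6.62 against 92.0 ± 11.4 in WT (SD, n = 4). Its SAHA effect was -0.77 (SE 0.0911, adjusted p = 3.47e-05) in het1 and 0.049 in WT, and the difference was -0.82 (SE 0.128, adjusted p = 0.00186). SLC7A11 read 371, 450.5, 372 and 365 CPM in het1 with DMSO and 222, 272, 275 and 250.4 with SAHA, and 343 ± 40.4 against 371 ± 26.7 in WT. Its SAHA effect was -0.61 (SE 0.0900, adjusted p = 0.000195) in het1 and 0.11 in WT, and the difference was -0.72 (SE 0.127, adjusted p = 0.0038). For these 3 genes no het1 DMSO library overlapped a het1 SAHA library. All 3 differences remained called when any single library was left out, with ranges of -0.89 to -0.69 for GCLC, -0.89 to -0.77 for GCLM and -0.79 to -0.65 for SLC7A11. With the replicate number as a block they were -0.63 (adjusted p = 0.219), -0.66 (0.0984) and -0.63 (0.0562), and 0 of the 9 genes were called.

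The other targets moved less under SAHA. NQO1 fell in het1 (log2FC -0.25, SE 0.0788, adjusted p = 0.0382), from 1014, 1065, 1064 and 1173 to 921, 900.5, 851 and 969 CPM. This call was lost without any of het1 DMSO replicates 3, 4 and 5 or het1 SAHA replicates 1, 2 and 3, over a range of -0.28 to -0.21, and also with library totals (-0.22) and the replicate block (-0.14). TXNRD1 had a value of -0.35 (adjusted p = 0.075), and was called by DESeq2 (adjusted p = 0.0371), with only the groups compared (adjusted p = 0.00133) and without WT SAHA replicate 4 or 6. Its difference between the lines, -0.42, was called without WT SAHA replicate 6 (-0.57). NFE2L2 (-0.15 in het1, -0.13 in WT) and KEAP1 (-0.11 and -0.066) were not called in either line. In all, 3 of the 9 genes had a SAHA effect that differed between the lines, with 4.72% of all genes called.

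Markers of other cells were compared beside these values. The summed level of 7 fibroblast markers was 115.6 to 132.2 CPM in het1 DMSO and 163.7 to 242.5 in het1 SAHA tumours, which did not overlap, and 243.9 to 355.4 and 179.3 to 512.5 in WT. The epithelial markers overlapped between DMSO (3600 to 4304 CPM) and SAHA (3677 to 4154) in het1, as did the myeloid markers (13.06 to 17.7 and 13.34 to 17.48). The part of the fibroblast change in the SAHA values was not tested.

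**Figure D4:**
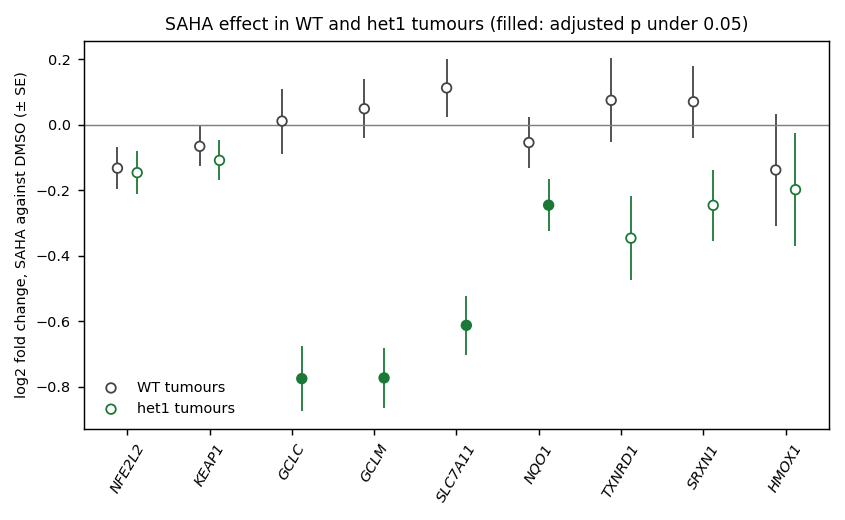
log2 fold change of SAHA against DMSO (y axis, bars are the model's SE) for each gene in WT tumours (grey) and het1 tumours (green); filled points have an adjusted p under 0.05. All WT points are open, and GCLC, GCLM, SLC7A11 and NQO1 are filled and below 0 in het1.

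The wider pathway was read from 7 lists holding 102 genes, none of them among the 9, and all 102 were tested. NRF2 partners and regulators (14 genes, such as the MAF partners and the NRF2 relatives) were described by their calls, beside 62.8%, 68.5% and 70.5% of all genes called in het1, het2 and homo cells: 7 rose and 3 fell in het1 cells, 9 and 4 in het2 cells, and 11 and 2 in homo cells (median log2FC 0.053, 0.25 and 0.41, against 0.025, 0.017 and 0.0054 over all genes). NFE2L3, an NRF2 relative, rose from 20.4 ± 0.365 CPM in WT cells to 35.7 ± 1.12 in het1, 27.7 ± 0.325 in het2 and 32.8 ± 0.86 in homo cells, and from 18.4 ± 1.1 CPM in WT tumours to 46.2 ± 3.49 in het1, 25.4 ± 2.42 in het2 and 60.6 ± 3.0 in homo tumours. NFE2L1, the factor that also drives proteasome genes, rose in every line in cells (0.16, 0.45, 0.38) and tumours (0.47, 0.54, 0.84). MAFF, a small MAF partner, rose in tumours by 1.51, 0.98 and 0.69. In tumours the list had 6 higher and 2 lower in het1, 8 and 2 in het2, and 7 and 1 in homo. All genes were called there at 51.5%, 49.2% and 54.8%.

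Other NRF2-linked detoxification genes (24, aldo-keto reductases, ALDH3A1, EPHX1, PTGR1 and others) had more members called lower than higher in each line. In cells, where 62.8%, 68.5% and 70.5% of all genes were called in het1, het2 and homo, 3 rose and 20 fell in het1, 9 and 14 in het2, and 4 and 19 in homo, with medians of -0.77, -0.25 and -1.73 against 0.025, 0.017 and 0.0054 over all genes. ALDH3A1, which oxidises aldehydes, stood at 1351 ± 102 CPM in WT cells and 55.6 ± 2.08 in homo cells, and at 573 ± 41.8 and 68.2 ± 6.9 CPM in their tumours. In tumours, where 51.5%, 49.2% and 54.8% of all genes were called, 3 rose and 17 fell in het1, 6 and 9 in het2 with 9 not called, and 5 and 14 in homo. EPHX1, an epoxide hydrolase, fell by 2.60 in het1, 0.88 in het2 and 1.98 in homo tumours on the log2 scale. Under SAHA 0 rose and 16 fell in het1 (median -0.42), and 0 and 0 in WT. The effect differed between the lines for 8, all lower in het1, beside 4.72% of all genes called. With the replicate block it differed for 0. Over the 102 genes of all lists SAHA raised 3 and lowered 34 in het1 tumours, beside 16.8% of all genes called, and called 0 in WT tumours, beside 0%. With the replicate block the het1 calls were 2 in the NRF2 partner list, 2 in the glutathione list, 8 in the detoxification list, 1 in the ATF4 list and 0 in the thioredoxin, NADPH and heme lists. PTGR1, which reduces leukotriene and lipid aldehydes, had a SAHA effect of -0.60 in het1 and 0.061 in WT.

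**Figure D5:**
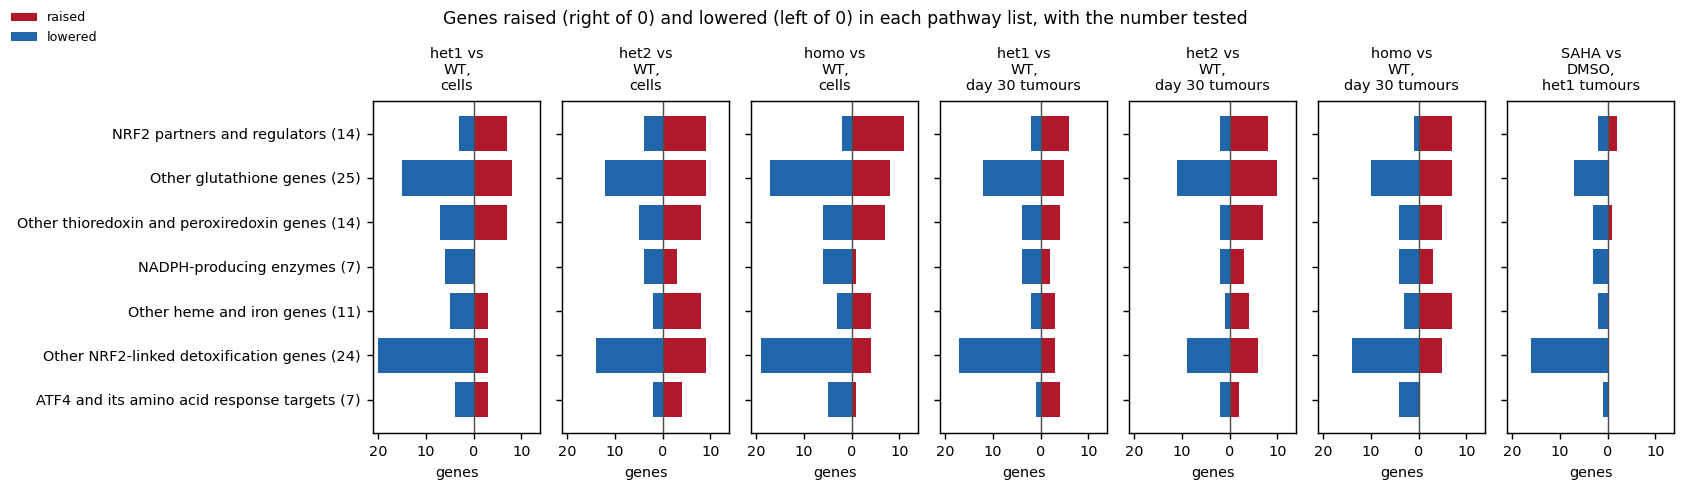
Number of genes called higher (right of 0, red) and lower (left of 0, blue) in each of 7 pathway lists (number tested in parentheses) in 7 comparisons, from the edgeR test. Every list extends to the left in each comparison shown. The detoxification and glutathione lists have more genes lower than higher in each, and 16 of 24 detoxification genes are lower under SAHA in het1 tumours.

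Other glutathione genes (25) were mixed. In cells 8 rose and 15 fell in het1, 9 and 12 in het2, and 8 and 17 in homo. All genes were called there at 62.8%, 68.5% and 70.5%. GPX2, a glutathione peroxidase of epithelia, differed far more in culture than in tumours: 639 ± 21.8 CPM in WT cells, 69.3 ± 2.15 in het1, 16.5 ± 1.77 in het2 and 0.517 ± 0.0604 in homo cells, but 1086 ± 42.6, 1009 ± 125, 1258 ± 61.2 and 1282 ± 82.6 CPM in the respective tumours. GSTM3, a glutathione transferase, rose in the tumours of all lines (1.502, 0.79 and 0.98), and GLRX, glutaredoxin, fell (-1.52, -0.38 and -1.64). In tumours the list had 5 higher and 12 lower in het1, 10 and 11 in het2, and 7 and 10 in homo. The share over all genes was 51.5%, 49.2% and 54.8%. SAHA lowered 7 of 25 in het1 tumours, where 16.8% of all genes were called. The 7 included the microsomal transferase MGST1 (-0.50), SLC3A2 (-0.29) and GGT1 (-0.72), which starts the breakdown of extracellular glutathione.

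Other thioredoxin and peroxiredoxin genes (14) were divided between higher and lower, 7 and 7 in het1 cells, 8 and 5 in het2 cells, and 7 and 6 in homo cells. All genes were called in these cells at 62.8%, 68.5% and 70.5%. PRDX4, the peroxiredoxin of the secretory pathway, rose in the tumours of het1, het2 and homo by 1.14, 0.94 and 0.90, and in their cells by 0.089, 0.17 and 0.18. SESN3, a sestrin, rose in cells (1.77, 2.65 and 2.57), fell in het1 and het2 tumours (-0.96 and -0.29) and was at 0.072 in homo tumours, not called. PRDX1 fell in cells (-0.36, -0.64 and -0.46). In tumours 4 rose and 4 fell in het1, 7 and 2 in het2, and 5 and 4 in homo. The share over all genes was 51.5%, 49.2% and 54.8%.

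The NADPH-producing enzymes (7), which supply the reducing power for TXNRD1 and glutathione reductase, had more falls than rises in het1 and homo cells: 0 rose and 6 fell in het1, 3 and 4 in het2, and 1 and 6 in homo, beside 62.8%, 68.5% and 70.5% of all genes called. In tumours 2 rose and 4 fell in het1, 3 and 2 in het2, and 3 and 4 in homo. The share over all genes was 51.5%, 49.2% and 54.8%. TALDO1, transaldolase, fell in tumours (-0.97, -0.60 and -0.84) as in cells (-0.78, -0.61 and -0.66). ME1, malic enzyme, fell in het1 and homo cells (-0.43 and -0.71) and rose in het1, het2 and homo tumours (0.24, 0.66 and 0.77).

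Other heme and iron genes (11) had 3 higher and 5 lower in het1 cells, 8 and 2 in het2 cells, and 4 and 3 in homo cells. In the tumours of het1, het2 and homo they had 3 and 2, 4 and 1, and 7 and 3. All genes were called at 62.8%, 68.5% and 70.5% in these cells and at 51.5%, 49.2% and 54.8% in these tumours. SLC40A1, the iron exporter ferroportin, fell in cells (-2.13, -2.15 and -1.87) and tumours (-1.51, -0.59 and -2.36). TFRC, the transferrin receptor, rose in tumours (0.82, 1.87 and 1.11). ATF4, which is also known to drive SLC7A11, and its amino acid response targets (7 genes) had 3 higher and 4 lower in het1 cells, 4 and 2 in het2 cells, and 1 and 5 in homo cells. In tumours 4 rose and 1 fell in het1, 2 and 2 in het2, and 0 and 4 in homo. These ATF4 counts stand beside the same shares of all genes. ATF4 itself fell in homo cells (-0.85), and TRIB3, a kinase-like ATF4 target, fell in homo cells (-3.10) and homo tumours (-2.11). SLC7A5, an amino acid transporter that pairs with SLC3A2, fell in cells (-1.963, -1.78 and -2.79) and tumours (-1.39, -0.65 and -0.85).

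For each gene the genes with the most similar pattern over the 12 group means of log2 CPM were listed among 11716 genes with a mean of at least 5 CPM. The closest were ZNF319 for NFE2L2 (Pearson r = 0.97), NAA38 for KEAP1 (0.90), ATP2B1 for GCLC (0.92), UCK2 for GCLM (0.99), TSR2 for SLC7A11 (0.98), FAM104B for NQO1 (0.97), LANCL2 for TXNRD1 (0.97), OSGIN1 for SRXN1 (0.98) and NXPE3 for HMOX1 (0.98). None of these is among the 9 genes, and OSGIN1 is in the detoxification list. The 12 means share the division between culture and tumour and the 3 tables, so the values describe likeness only.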

How the data were processed

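RNA was read as polyA libraries made with a stranded kit, per the labels. Per the submitters' processing notes, bcl2fastq, HISAT2 and HTSeq were used with hg38 (no versions named). The authors deposited read counts per gene in 3 tables (cells, day 30 tumours, treated tumours). Not given in the sources used here: annotation release, strand setting, treatment of host reads.

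Each table was fitted with all its groups in edgeR 4.0.16 (R 4.3.3): TMM factors, filterByExpr, robust quasi-likelihood tests, and Benjamini-Hochberg adjustment over all genes tested, 21704, 22533 and 22586 genes in the order of the tables above. CPM use the TMM factors of their table, and RPKM divide by the exonic length in GENCODE 29. The fits were tested on simulated data. Alternatives were RLE, library totals, DESeq2 1.42.0, no filter, a mean of at least 1 CPM, only the groups compared, a replicate block, and leaving out each library. A joint fit of cells and day 30 tumours was added after seeing the data. The 9 genes and the lists were chosen with earlier results of these data known. Named list genes are up to 3 per list and table with the smallest p. Among 60 pairs of libraries within groups, 0 were identical. Totals of 61168373 to 99593214 counts per library set the counting error alone, and molecular identifiers are not named in the labels.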

Additional observations from a re-analysis of the deposited data

Results flagged for a closer look

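Among 72 checks of a gene in a group of 4 libraries, 2 had a library far from the other 3, and about 1 in 20 such checks would do so by chance. NFE2L2 stood at 157.8 CPM in homo tumour replicate 0, against 139 to 141.1 CPM in the others. SLC7A11 stood at 450.5 CPM in het1 DMSO replicate 3, against 364.6 to 371.7 CPM.

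The SAHA effect differed between het1 and WT tumours for GCLC (-0.79, edgeR adjusted p = 0.00506), GCLM (-0.82, 0.00186) and SLC7A11 (-0.72, 0.0038). With the replicate number as a block 0 of these 3 were called, and 19 of all genes in place of 1066.

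The difference of a line from WT itself differed between tumours and cultured cells, given here as tumours minus cells on the log2 scale. In het1 this held for GCLC (1.68), GCLM (0.75), NFE2L2 (-0.34), NQO1 (-0.49) and HMOX1 (-1.12). In het2 it held for GCLC (1.503), GCLM (0.83), TXNRD1 (0.46), NQO1 (0.29), KEAP1 (0.27), SLC7A11 (-0.23) and HMOX1 (-0.78). In homo it held for GCLC (2.65), GCLM (0.91), TXNRD1 (0.63), KEAP1 (0.36), SLC7A11 (-0.28), NFE2L2 (-0.35) and HMOX1 (-1.11). In het2 the NQO1 call was lost with RLE or DESeq2 (0.22), library totals (0.087) and no filter (0.25), and the KEAP1 calls in het2 and homo with library totals (0.065 and 0.092). The summed myeloid and endothelial markers also differed between the tumours of the lines, as given beside HMOX1 and NQO1 above. Within the myeloid sum, LYZ and CD14 moved in opposite directions. Within the endothelial sum, PECAM1 was below WT in homo tumours while CDH5 and KDR were above it. The summed fibroblast markers differed between the cultures of WT and the other lines. The part of other cells in the tumour values, and of these marker differences in the culture values, was not tested.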

How the results depend on the processing

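HMOX1 under SAHA in WT, -0.14, changed sign with the replicate block, and the cause was not tested. With library totals in cells, NFE2L2 in het1 became 0.094, NQO1 0.057 in het1, 0.19 in homo and 0.061 in homo against the het lines, and KEAP1 0.11 in het2 and 0.010 in homo. NQO1 in homo cells was 0.0016 with RLE or DESeq2, 0.031 with a mean of at least 1 CPM and 0.016 with only the groups compared, and against the het lines 0.0089 with RLE or DESeq2 and 0.0059 with that mean. KEAP1 in het2 cells was 0.023 with that mean and 0.0033 with only the groups compared. The NFE2L2 difference between SAHA effects was 0.016 with library totals and 0.015 with the mean filter. For tumours minus cells in het1, KEAP1 was -0.017 with RLE or DESeq2 and -0.14 with library totals, SLC7A11 was -0.0065 and -0.13, and TXNRD1 was -0.085 with library totals. SRXN1 was -0.043 in het2 and -0.020 in homo with RLE, -0.042 and -0.019 with DESeq2, -0.18 and -0.22 with library totals, -0.021 and -0.012 with no filter, and -0.013 in het2 with the mean filter.

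Leaving out single libraries gave ranges that crossed 0 for uncalled values. In cells these were KEAP1 -0.010 to 0.071 in het1 and -0.049 to 0.044 in het2, SRXN1 -0.072 to 0.17 in het1, NFE2L2 -0.0023 to 0.023 in het2, and NQO1 -0.013 to 0.0057 in homo against the het lines. In day 30 tumours they were KEAP1 -0.0038 to 0.057 in het1, HMOX1 -0.17 to 0.042 in het2, and KEAP1 -0.034 to 0.0067 and NQO1 -0.030 to 0.076 in homo against the het lines. For SAHA in WT they were GCLC -0.10 to 0.12, GCLM -0.0031 to 0.12, NQO1 -0.11 to 0.027, TXNRD1 -0.054 to 0.22 and SRXN1 -0.040 to 0.13, and for the difference between SAHA effects NFE2L2 -0.077 to 0.034 and HMOX1 -0.20 to 0.076. For tumours minus cells SRXN1 took -0.24 to 0.0071 in het1, -0.084 to 0.14 in het2 and -0.061 to 0.16 in homo.

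Over all genes, SAHA in WT called 0, 151 with DESeq2, 36 with no filter, and 0 to 170 with a library left out (170 without WT DMSO replicate 3, 27 without WT SAHA replicate 4, and 1 without WT DMSO replicate 2 or WT SAHA replicate 6). The difference between SAHA effects called 1066, 1803 with DESeq2, and 542 (without het1 SAHA replicate 1) to 1677 (without WT SAHA replicate 6), with 572 to 700 without WT SAHA replicate 3, het1 DMSO replicate 3, WT DMSO replicate 7, het1 SAHA replicate 3 or het1 DMSO replicate 5.

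Replicate numbers recur between groups. Libraries with the same number had residual correlations of -0.112 to 0.068 in cells. In day 30 tumours the correlations were -0.191 to 0.168, and in treated tumours -0.151 to 0.134. In the same order, 2 of 12, 1 of 15 and 3 of 13 libraries correlated best with their own number. With 3 or 4 libraries per group, these values cannot show whether a number marks a shared culture, animal or batch. With the replicate block, numbers held by a single library drop out of the fit. SAHA in het1 then called 812 genes in place of 3801, the difference between SAHA effects 19 in place of 1066 and 0 of the 9 genes in place of 3, and the NFE2L2 difference between SAHA effects (0.032) and HMOX1 under SAHA in WT (0.045) changed sign. The block also took away the calls of KEAP1 under DMSO (0.13), GCLM under SAHA in het1 against WT (-0.22) and NQO1 under SAHA (-0.14). Counts in the lists moved by over 1.5 times in this fit for SAHA in het1 (2 glutathione genes, 2 NRF2 partners, 8 detoxification genes and 0 in the thioredoxin, NADPH and heme lists), for the difference between SAHA effects (0 in all lists), for NADPH enzymes in het2 tumours (3) and for heme genes in het1 under DMSO (5). It changed no other call of the 9 genes in cells or treated tumours, and none in day 30 tumours.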
